A study of Homo sapiens with 8 samples.

Results

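The genes described here are 7 well known targets of chromosomal translocation and cyclin D deregulation in multiple myeloma, a cancer of plasma cells: NSD2, FGFR3, MAF, MYC and the D cyclin genes CCND1, CCND2 and CCND3. They were taken by name from a transcript table, and the values of each gene's transcripts were summed, so that 7 of 24351 genes are followed here through 8 libraries. All 7 had a value of at least 1 in at least 2 libraries and entered the tests, FGFR3 only through H929.

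The study sequenced poly(A) RNA of the human myeloma cell lines ARP1 and H929. Each line was listed in 4 genotypes, with 1 library each: overexpression of CHEK1, the control made for it, knockdown of CHEK1, and a control for that. CHEK1 encodes the checkpoint kinase CHK1. The labels give neither the vector or agent used nor whether a line was a clone, and the main comparison set the 4 ARP1 libraries against the 4 H929 libraries. Values are FPKM, which set a transcript's fragments against its length and the library's size, as the authors deposited them. The deposited values are called means, and what was averaged is not stated. The labels list no repeat of a genotype within a line, so the 4 genotypes stand as the replicates of a line. A p-value reflects nothing beyond the spread among these 8 libraries.

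In plasma cell tumours, breaks at the immunoglobulin heavy chain locus on chromosome 14 can place a strong enhancer beside another gene. The recurrent partners include CCND1 in t(11;14), FGFR3 and NSD2 in t(4;14), MAF in t(14;16) and CCND3 in t(6;14), while MYC is rearranged with many partners, often late in the disease. Nearly every such tumour expresses at least 1 D cyclin, the regulatory subunit that lets CDK4 and CDK6 phosphorylate the retinoblastoma protein; CCND2 is a known target of MAF. RNA levels such as these show how much of a gene's transcript was present, not whether its locus was rearranged.

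Sequences of 2 of the genes are shown first, because the results below turn on which start site or which end their transcripts use. MAF lies at chr16:79585843-79600714 on the minus strand of GRCh38 (ENSG00000178573). Its 250 bases before the RefSeq start (GRCh38.p14, chr16:79600738-79600987, minus strand) are printed with capitals for TATAAA, the TATA box, whose first base lies 30 bases before the start, and for TCAGCA, whose first base lies 22 bases before it. The MAF transcripts measured here start downstream of that RefSeq start, MAF-201 and MAF-202 at 79600714 and MAF-203 at 79599902. TCAGCA is the reverse complement of TGCTGA, a core part of the element that MAF proteins bind. Searched on both strands, TGCTGA was in 14% of 35116 RefSeq promoters of this length and TATAAA in 10.7%.
MAF promoter: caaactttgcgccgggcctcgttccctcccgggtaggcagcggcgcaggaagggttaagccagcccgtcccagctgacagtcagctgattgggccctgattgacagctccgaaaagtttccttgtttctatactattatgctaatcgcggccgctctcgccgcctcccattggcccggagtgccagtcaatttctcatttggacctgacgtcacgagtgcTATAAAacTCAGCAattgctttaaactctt
All 3 annotated MAF transcripts were in the table, and they part at the end of the first exon, at chr16:79598785-79598799. The shared last 15 bases of that exon are in capitals, and the 15 bases that follow in each transcript are in lower case.
MAF-202: TCCCGAGTTTTTCATgtgagtctgacacgc
MAF-201: TCCCGAGTTTTTCATaactgagcccactcg
MAF-203: TCCCGAGTTTTTCATgtacccaagggaatc
MAF-202 is a single exon of 6384 nt that reads on past that point and codes for 373 residues, MAF-201 is spliced to a second exon and codes for 403, and MAF-203 is spliced to a far one and codes for 383.

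CCND3 lies at chr6:41934933-42050357 on the minus strand (ENSG00000112576), and its 13 transcripts in the table start in a pair of regions more than 100 kb apart. The RefSeq promoters at these regions are printed with capitals for GGGCGG or its reverse complement CCGCCC, the core of a GC box. That core was in 42.6% of the 35116 promoters. The near promoter (chr6:41941809-41942058, minus strand) held 2 matches and the far one (chr6:42048689-42048938, minus strand) held 5. The main model of each region starts inside its stretch, CCND3-203 at 41941848 and CCND3-205 at 42048894. Another RefSeq promoter of CCND3 (chr6:41939206-41939455, minus strand) is not printed. It held 0 matches of the GC box core and 1 of TGCTGA.
CCND3 near promoter: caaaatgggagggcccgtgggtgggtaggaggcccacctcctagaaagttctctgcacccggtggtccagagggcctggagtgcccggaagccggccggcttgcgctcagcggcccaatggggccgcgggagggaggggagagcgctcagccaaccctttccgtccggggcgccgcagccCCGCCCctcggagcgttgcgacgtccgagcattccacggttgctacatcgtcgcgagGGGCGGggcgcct
CCND3 far promoter: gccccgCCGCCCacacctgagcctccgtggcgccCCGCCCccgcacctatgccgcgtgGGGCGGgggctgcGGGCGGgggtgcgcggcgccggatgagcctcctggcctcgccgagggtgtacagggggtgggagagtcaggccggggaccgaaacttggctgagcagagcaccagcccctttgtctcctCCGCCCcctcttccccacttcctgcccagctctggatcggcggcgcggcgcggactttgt
Neither printed CCND3 stretch nor the MAF stretch held CACGTG, the E-box bound by MYC with MAX, which was in 6.34% of the promoters.

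Across the table, summed FPKM was 631871 to 693299 per library and 13084 to 14092 genes stood at 1 FPKM or more, while read depth is unknown. The plasma cell identity of the libraries was seen in SDC1, the plasma cell surface marker CD138, at 150.4 to 223 FPKM in ARP1, against 156 to 210.3 in H929, and in XBP1, IRF4 and MZB1. SLAMF7, another plasma cell surface protein, averaged 17.9 ± 6.43 FPKM in ARP1 and 0.139 ± 0.0692 in H929 (SD, n = 4 each). Summed markers of T and NK cells reached 1.14 FPKM in ARP1 and 14.3 in H929, nearly all of it GNLY in the H929 overexpression library, and those of stroma and epithelium reached 5.48 and 17.1. CHEK1 was 114 FPKM in the ARP1 overexpression library and 78.2 FPKM in its control, and 107 and 81.6 FPKM in the H929 pair. In ARP1 the library labelled knockdown held 51.6 FPKM and its control 61.0, whereas in H929 the values were 84.8 and 80.7 FPKM, so the H929 library labelled knockdown did not hold less CHEK1 and is named by its label throughout.

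**Figure D1:**
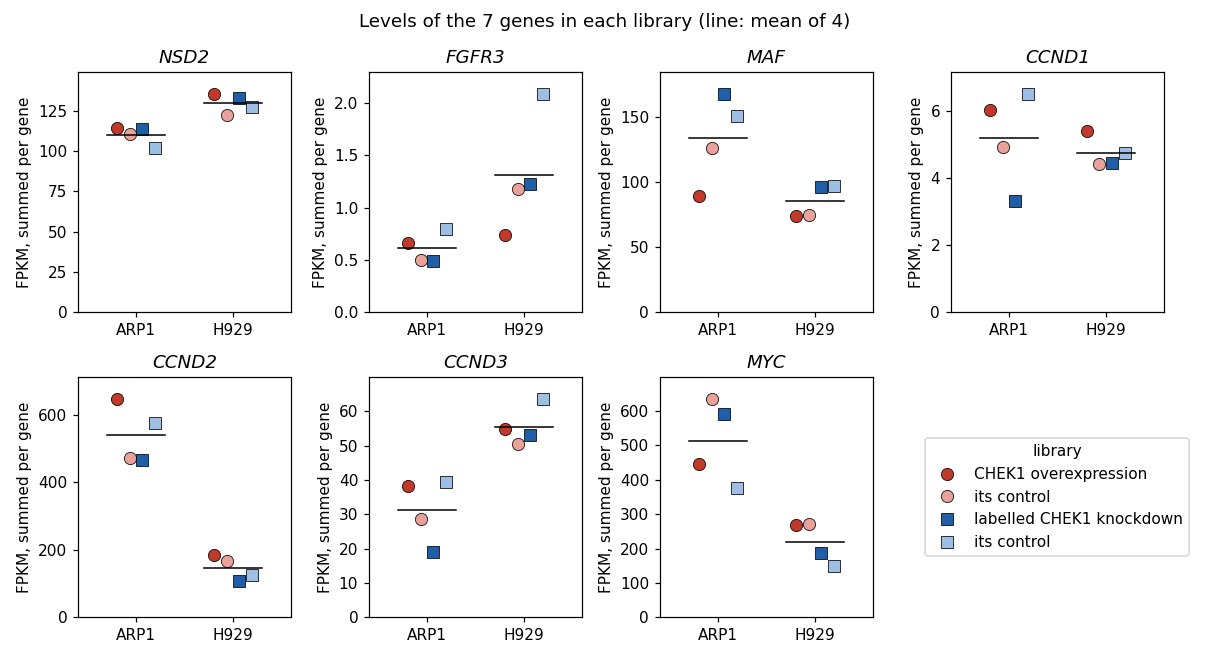
FPKM summed per gene (linear axes from 0) in the 4 ARP1 and 4 H929 libraries, with 1 point per library and a line at the mean of 4. The ARP1 and H929 points do not overlap for NSD2, CCND2, CCND3 and MYC; FGFR3 stays at or below 2.09 FPKM in all 8.

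The 7 genes spanned nearly the whole range of expression. In order of the mean in ARP1, CCND2 and MYC came first at 540.5 ± 86.2 and 512 ± 122 FPKM, followed by MAF (134 ± 34.3) and NSD2 (110.2 ± 5.73), then CCND3 (31.4 ± 9.60), CCND1 (5.18 ± 1.42) and FGFR3 (0.610 ± 0.146; SD, n = 4 each). In H929 the order was MYC (219 ± 60.01), CCND2 (146 ± 35.7), NSD2 (129.6 ± 6.06), MAF (85.8 ± 13.03), CCND3 (55.6 ± 5.67), CCND1 (4.75 ± 0.460) and FGFR3 (1.31 ± 0.565). The ranges of CCND2 and MYC overlapped in ARP1, as did those of MAF and NSD2, and in H929 CCND2 overlapped with both of its neighbours in the order. Among all genes tested, CCND2 stood at the 98.8th percentile in ARP1 and the 96.0th in H929, and FGFR3 at the 2.58th and the 14.4th.

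Between the lines, CCND2, MYC and MAF were higher in ARP1 and CCND3 was lower. In all, 4 of the 7 passed limma's test with Benjamini-Hochberg adjustment over 14905 genes at 0.05, beside 27.1% of all genes tested. By direction, 3 were higher in ARP1, beside 13.7% of all genes, and 1 was lower, beside 13.4%. The ARP1 and H929 libraries did not overlap for 4 of the 7 genes (NSD2, CCND2, CCND3 and MYC), beside 27% of all genes tested. With 7 genes, these counts lie above the background shares and say no more than that. The median log2 difference of all genes tested was 0.00, while summed FPKM was 663877 to 693299 in ARP1 and 631871 to 649959 in H929, without overlap.

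**Figure D2:**
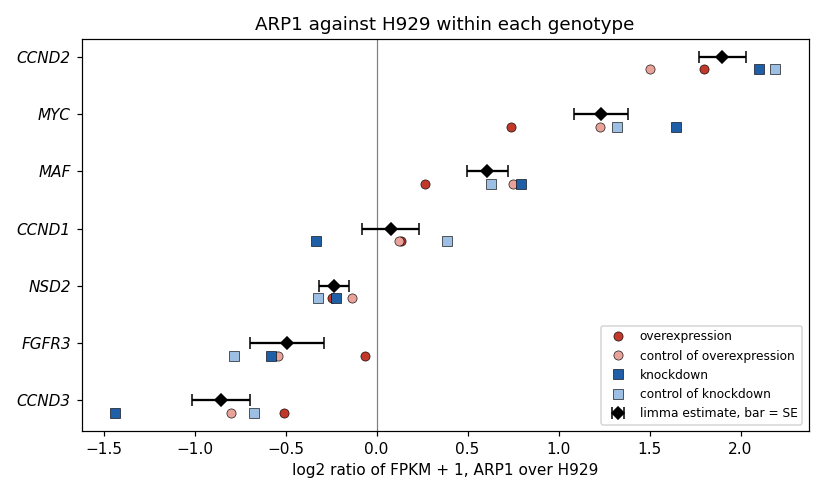
Log2 ratio of FPKM + 1, ARP1 over H929, for each gene: diamonds are the limma estimates with SE bars, and the coloured points below them are the ratios within each of the 4 genotypes. CCND2, MYC and MAF lie right of 0 and CCND3, NSD2 and FGFR3 left of it in 4 of 4 genotypes, and CCND1 lies on both sides.

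NSD2, a histone methyltransferase that places H3K36 dimethylation and is the constant target of t(4;14), was abundant in both lines. The gene lies at chr4:1871424-1982207 on the plus strand (ENSG00000109685). It stood at 114, 111, 114 and 102 FPKM in the ARP1 overexpression library, its control, the library labelled knockdown and its control, against 136, 122, 133 and 127.5 FPKM in H929 in the same order. Every ARP1 library lay below every H929 library, but by a small step: the log2 difference was -0.23 (SE 0.08) and lower in ARP1 in 4 of 4 genotypes, and it did not pass the test (limma adjusted p = 0.0794). With values scaled to a common total per library the log2 difference was -0.31 and passed (adjusted p = 0.0343). By the ratio of means, ARP1 held 0.85 times the NSD2 of H929.

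FGFR3, a receptor tyrosine kinase for fibroblast growth factors, lies beside NSD2 at chr4:1793293-1808872 on the plus strand (ENSG00000068078) and was near the floor of detection in both lines. It stood at 0.664, 0.497, 0.488 and 0.792 FPKM in the ARP1 libraries in the order above, against 0.740, 1.18, 1.22 and 2.09 FPKM in H929. The lowest H929 library, with overexpression, fell within the ARP1 range, and the other 3 lay above it. The log2 difference was -0.49 (SE 0.20, limma adjusted p = 0.114) and negative in 4 of 4 genotypes. FGFR3 entered the test only through H929, so these values are a description. H929 is widely described as a t(4;14) line with high FGFR3 and NSD2. The libraries labelled H929 did not show high FGFR3, which was at most 2.09 FPKM, and NSD2 was 1.18 times its ARP1 level by the ratio of means. By the same ratio FGFR3 was 2.14 times its ARP1 level, near the floor in both lines. The reason for these levels was not tested, and the lines are called by their labels.

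MAF, a basic leucine zipper transcription factor, was abundant in the libraries of both labels and higher in ARP1. It stood at 89.2, 127, 168 and 151 FPKM in ARP1, against 74.0, 75.03, 96.8 and 97.4 FPKM in H929, in the order overexpression, its control, labelled knockdown, its control. The reason for its level under the H929 label was not tested. The ARP1 overexpression library lay within the range of the H929 libraries and the other 3 lay above it, and within each genotype ARP1 held more. The log2 difference was 0.61 (SE 0.11, limma adjusted p = 0.0106). This call was the least firm of the 4: it ended without either control of overexpression (0.56, adjusted p = 0.0599 and 0.0596), without the genotype as a block (adjusted p = 0.0528) and within either arm alone (0.51, adjusted p = 0.0742, in the overexpression arm; 0.71, adjusted p = 0.0935, in the knockdown arm).

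Between the arms of the experiment, libraries did not overlap for 1 of the 7 genes in ARP1 (MAF), beside 44.8% of all genes tested, and for 4 of the 7 in H929, beside 53.5%. The count in H929 is close to the share of all genes and that in ARP1 is below it, so nothing about the 7 genes is read from them. For MAF the knockdown library and its control held 151 to 168 FPKM in ARP1, against 89.2 to 127 in the overexpression library and its control, and 96.8 to 97.4 against 74.0 to 75.03 in H929. In H929 the arms were also separate for FGFR3, at 1.22 to 2.09 FPKM in the knockdown arm and 0.740 to 1.18 in the overexpression arm. CCND2, at 108 to 125 against 166 to 185, and MYC, at 149 to 188 against 267 to 270.4, were lower in the knockdown arm of H929. Each arm of a line is 2 libraries, so no test of these differences was made, and the arm and whatever distinguished its libraries in handling cannot be told apart.

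The D cyclins make up the next group. CCND1, on chr11:69641087-69654474 (plus strand, ENSG00000110092), encodes cyclin D1, and it was low in both lines. It stood at 6.02, 4.90, 3.30 and 6.50 FPKM in ARP1, against 5.40, 4.42, 4.43 and 4.73 FPKM in H929, in the order above. The groups overlapped, with a log2 difference of 0.08 (SE 0.16, limma adjusted p = 0.746) that turned to -0.03 without either control of knockdown. LTO1, which overlaps CCND1 on the opposite strand, stood at 9.66 to 12.6 FPKM in ARP1, against 10.9 to 14.7 in H929. No source used here says whether reads kept their strand, so reads from the overlap cannot be assigned with certainty.

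CCND2, on chr12:4273772-4305350 (plus strand, ENSG00000118971), encodes cyclin D2 and was the gene of the 7 that differed most. It stood at 647, 473, 468 and 574 FPKM in ARP1, against 185, 166, 108 and 125 FPKM in H929. The lowest ARP1 library held more than 2 times the highest H929 library, and the ratio of means was 3.70. The log2 difference was 1.90 (SE 0.13, limma adjusted p = 0.00049), with ratios of 1.51 to 2.19 in the 4 genotypes, and it passed in the overexpression arm alone (1.65, adjusted p = 0.0117) and in the knockdown arm alone (2.15, adjusted p = 0.033). CCND2-AS1, the antisense gene that overlaps it, reached no more than 2.82 FPKM in ARP1 libraries and 1.31 FPKM in H929 libraries.

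CCND3, which encodes cyclin D3, ran the other way. It stood at 38.4, 28.7, 18.9 and 39.5 FPKM in ARP1, against 55.0, 50.6, 53.0 and 63.6 FPKM in H929. All ARP1 libraries lay below all H929 libraries, and the ARP1 library labelled knockdown was lowest. The log2 difference was -0.86 (SE 0.16, limma adjusted p = 0.0111). The call ended without either control of overexpression (-0.87, adjusted p = 0.0514 and 0.0518) and in the knockdown arm alone (-1.06, adjusted p = 0.101), and it passed in the overexpression arm alone (-0.65, adjusted p = 0.0317).

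Put together, cyclin D2 supplied most D cyclin RNA in both lines, but not to the same degree. CCND2 was 92.6% to 95.5% of the summed FPKM of the 3 genes in ARP1 and 64.6% to 75.4% in H929. CCND3 was 3.86% to 6.36% in ARP1 and 22.4% to 32.9% in H929, and CCND1 was 0.674% to 1.05% in ARP1 and 2% to 2.67% in H929. The sum itself was 489.8 to 691 FPKM in ARP1 and 166 to 246 FPKM in H929. The lines did not overlap for the sum or for any of the 3 shares, beside 27% of single genes tested that did not overlap. The shares are parts of 1 sum made up mostly of CCND2, so they do not vary independently. In FPKM, CCND1 overlapped between the lines.

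**Figure D3:**
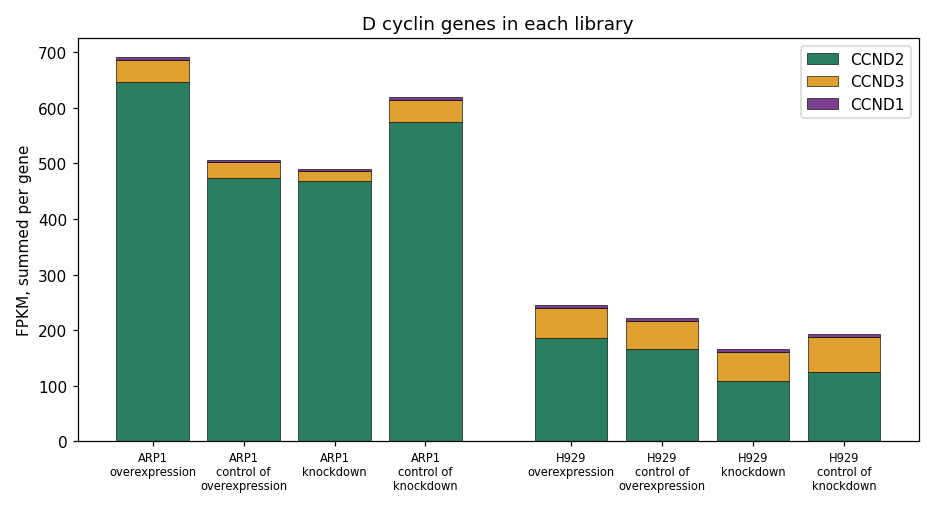
Stacked FPKM (linear axis from 0) of CCND2, CCND3 and CCND1 in each library, with the 4 ARP1 libraries left and the 4 H929 libraries right, named by their labels. The stacks reach 489.8 to 691 FPKM in ARP1 and 166 to 246 FPKM in H929, and the CCND3 segment is the larger share in H929.

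MYC, the transcription factor of growth and ribosome production, was high in both lines and higher in ARP1. The gene (ENSG00000136997) lies on the plus strand of chromosome 8. It stood at 446, 634, 591 and 375 FPKM in ARP1, against 267, 270.4, 188 and 149 FPKM in H929, in the order above. The lowest ARP1 library, the control of knockdown, lay above all H929 libraries, and the ratio of means was 2.34. The log2 difference was 1.23 (SE 0.15, limma adjusted p = 0.00297), with ratios of 0.74 to 1.65 in the 4 genotypes, and it passed within the overexpression arm (0.98, adjusted p = 0.0243) and the knockdown arm (1.49, adjusted p = 0.0451). The controls of a line differed too: the log2 ratio of the control of overexpression to the control of knockdown was 0.76 in ARP1 and 0.85 in H929, so MYC moved by more than 1.5-fold between libraries that both served as controls.

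The transcripts behind these sums were read next, as estimates that the authors' assembler divided among overlapping models. Of 36791 transcripts tested between the lines, 6.5% were called. Among those of the 7 genes 6 were called: CCND2-201, CCND3-203, MAF-203, MYC-202, MYC-205 and MYC-208. Models of a gene overlap, so this count is a description and is not set against the 6.5%. Transcript calls were fragile. The count over all transcripts was 2390, and between 8 and 758 when any 1 library was left out, and none of the 6 was called in all 8 of those fits; CCND2-201 held in 5 of 8, MYC-208 in 3, CCND3-203, MAF-203 and MYC-202 in 2 and MYC-205 in 0. Leaving out either library of a genotype gave the same line estimate, so the 8 fits are not 8 separate checks. Values of the 6 transcripts are therefore read as levels, and the adjusted p-values printed below carry this limit.

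MAF-202, the long single-exon form, was the main MAF transcript in every library. It stood at 64.3, 69.1, 120.2 and 113 FPKM in ARP1 and 57.3, 46.6, 58.9 and 68.8 FPKM in H929, and it was 54.5% to 74.8% of MAF in ARP1 and 60.8% to 77.4% in H929. MAF-201, the form for the longer protein, did not separate the lines, at 21.6 ± 6.14 FPKM in ARP1 and 23.4 ± 5.02 in H929 (SD, n = 4 each; log2 difference -0.13, SE 0.16, limma adjusted p = 0.66). MAF-203, whose second exon lies far downstream, stood at 8.97, 27.4, 27.5 and 18.8 FPKM in ARP1, against 0.00411, 4.61, 8.96 and 4.48 FPKM in H929, so that it was 10.1% to 21.6% of MAF in ARP1 and no more than 9.26% of it in H929. The lowest ARP1 value and the highest H929 value of MAF-203 were nearly equal. Its log2 difference was 2.25 (SE 0.30, limma adjusted p = 0.0205), a call that held in 2 of the 8 left-out fits. MAF-202, with a log2 difference of 0.61 (SE 0.15), did not pass (limma adjusted p = 0.0697), and its ARP1 and H929 libraries overlapped.

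CCND3 RNA came mainly from the near start in both lines, and the line difference lay there. Transcripts from the near start summed to 30.04, 23.1, 12.4 and 35.2 FPKM in ARP1, against 49.8, 44.8, 49.3 and 59.2 FPKM in H929. Those from the far start summed to 8.34, 5.57, 6.56 and 4.29 FPKM in ARP1, against 5.17, 5.76, 3.79 and 4.42 FPKM in H929. Their main model, CCND3-205, begins inside the far stretch printed above, not behind it. The groups did not overlap for the near start and did for the far one. The near start thus held 65.4% to 89.1% of CCND3 in ARP1 and 88.6% to 93.1% in H929, the lowest share being that of the ARP1 library labelled knockdown. CCND3-203, which codes for the full 292 residues from the near start, averaged 21.9 ± 9.25 FPKM in ARP1 and 45.6 ± 6.67 in H929 (SD, n = 4 each; log2 difference -1.12, SE 0.22, limma adjusted p = 0.044). That call held in 2 of the 8 left-out fits.

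NSD2 transcripts took overlapping shares in the lines. Those that code for the full 1365 residues, the form with the methyltransferase domain, were 39.3% to 49.8% of NSD2 in ARP1 and 39.5% to 49.0% in H929, nearly all of it in NSD2-204 and NSD2-219. NSD2-203, which starts inside the gene and codes for 713 residues of the end that holds that domain, stood at 4.93% to 7.48% in ARP1 and 6.11% to 7.53% in H929. Transcripts that begin at the full coding start but end early were 44.7% to 54.9% in ARP1 and 44.0% to 54.4% in H929. No class of NSD2 transcript separated the lines by its share.

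**Figure D4:**
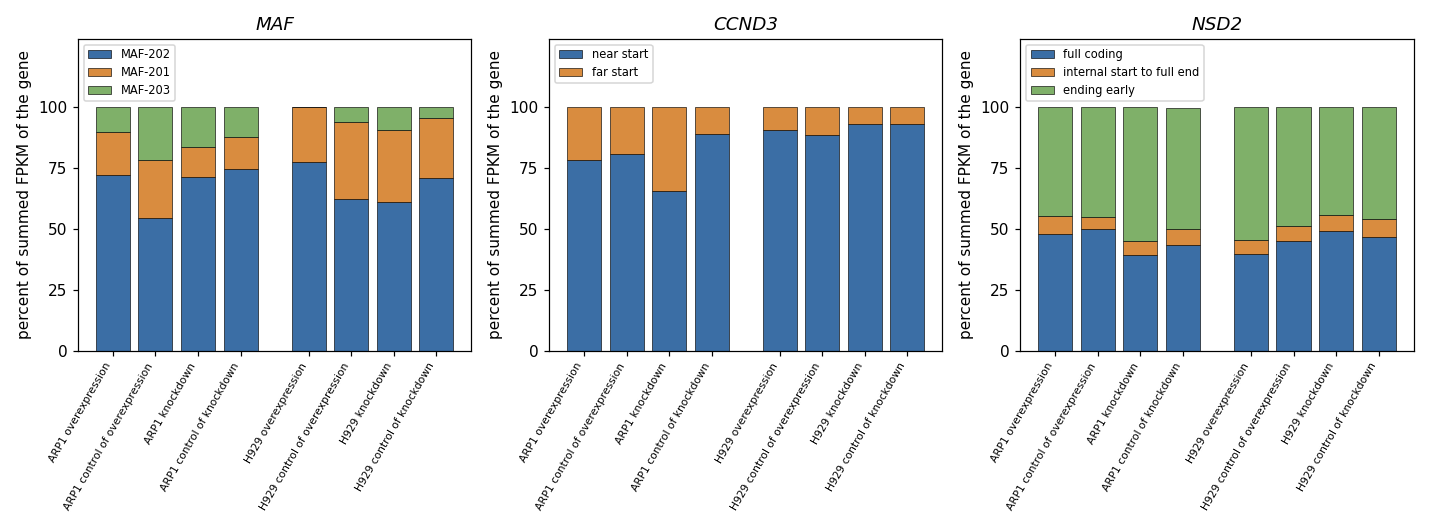
Share of each gene's summed FPKM (percent, linear axis from 0) by transcript class in each library: MAF by transcript, CCND3 by start region, NSD2 by coding class. ARP1 libraries are left and H929 libraries right; MAF-203 is the larger share in ARP1, at 10.1% to 21.6% against at most 9.26%, and the far CCND3 start reaches 34.7% in the ARP1 library labelled knockdown.

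Of the other members, CCND1-201 was at least 91.9% of CCND1 and CCND2-201 at least 99.0% of CCND2 in each of the 8 libraries. MYC was spread over nested models. MYC-202, which codes for 439 residues, averaged 197 ± 64.2 FPKM in ARP1 and 85.2 ± 15.3 in H929, and MYC-208, a fragment of 567 nt within the same locus, averaged 120 ± 56.0 in ARP1 and 35.1 ± 21.6 in H929 (SD, n = 4 each). MYC-207 ranged from 0.194 to 65.0 FPKM in ARP1 and from 3.90 to 57.7 FPKM in H929, although its model (2366 nt) has the exon count of MYC-202 and nearly its length (2351 nt). The 4 transcripts that run to the full coding end summed to 300, 423, 455 and 302 FPKM in ARP1, against 216, 193, 147 and 130 FPKM in H929, so the lines did not overlap with the fragment left out. FGFR3 had 1 transcript, FGFR3-205, that reached 1 FPKM in any library, at 1.42 in the H929 control of knockdown.

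With CHEK1 overexpression, 0 of the 7 genes passed the test against its control, beside 0.00671% of all genes tested, with limma adjusted p of at least 0.994; 663 of all genes had an unadjusted p under 0.05, and 0 of the 7 did. CCND2, CCND3, CCND1 and NSD2 had positive log2 ratios in both lines and MAF and MYC negative ones. The largest ratios of the 7 genes were in ARP1. There CCND2 stood at 647 FPKM with overexpression and 473 in its control (log2 ratio 0.45, and 0.16 in H929). MYC stood at 446 and 634 (-0.51, and -0.02 in H929). MAF stood at -0.50 in ARP1 and -0.02 in H929. NSD2 (0.04 in ARP1 and 0.15 in H929) and FGFR3 (0.15 and -0.32) had their larger ratio in H929. None of the 7 reached a 2-fold difference in either line, beside 3.29% of all genes in ARP1 and 2.73% in H929. Measured against the other control of each line, the fitted MYC ratio was 0.54 and that of CCND3 -0.12, so their direction depended on which control was used.

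**Figure D5:**
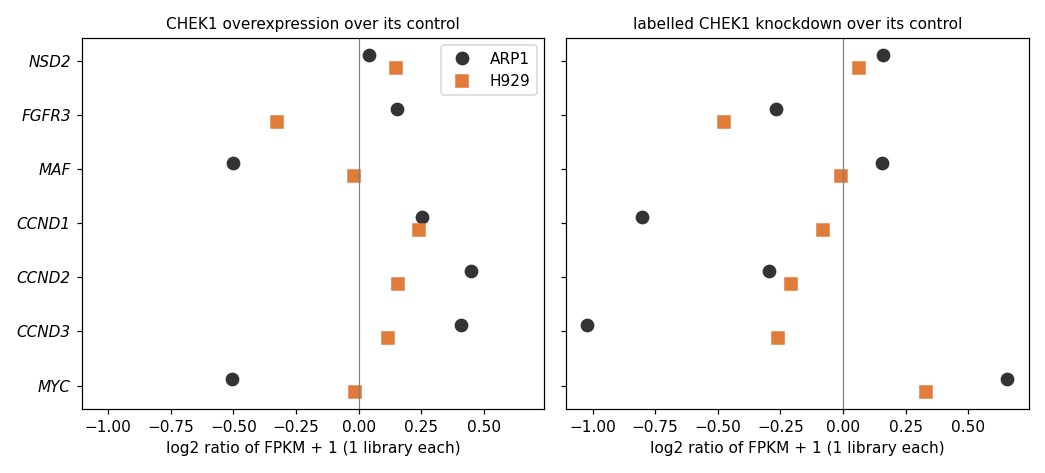
Log2 ratio of FPKM + 1 in each line, ARP1 (circles) and H929 (squares), for CHEK1 overexpression over its control (left) and the library labelled CHEK1 knockdown over its control (right), 1 library on each side of a ratio. In the left panel all ratios lie between -0.51 and 0.45; in the right panel CCND3 in ARP1 reaches -1.02.

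With the libraries labelled knockdown, 0 of the 7 genes passed against their control, beside 0.0134% of all genes tested. Unadjusted p under 0.05 was reached by 1362 of all genes, among them CCND3 (limma adjusted p = 0.538). In ARP1, CCND3 was 18.9 FPKM under the knockdown label and 39.5 FPKM in the control (log2 ratio -1.02). In H929 the pair was 53.0 and 63.6 FPKM (-0.26). It was the 1 member at 2-fold or more in ARP1, beside 8.26% of all genes there, and none was in H929, beside 3.6%. CCND1 stood at 3.30 and 6.50 FPKM in ARP1 (-0.80) and 4.43 and 4.73 in H929 (-0.08), and CCND2 at ratios of -0.30 and -0.21, so all 3 D cyclins had negative ratios in both lines. Of all genes tested, 52.1% were below the control in ARP1 and 48.4% in H929. In H929, CCND3 and CCND1 were not below the control of overexpression, at 50.6 and 4.42 FPKM. MYC had positive ratios, with 591 and 375 FPKM in ARP1 (0.66) and 188 and 149 in H929 (0.33), which against the other control of each line became -0.31 in the fit. Without the H929 library labelled knockdown, which did not hold less CHEK1, the fitted CCND3 ratio was -1.03. In that fit the ARP1 library alone stood for knockdown and was assumed to vary like the other groups, so the value is a description.

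The other genes of the D cyclin pathway differed between the lines in both directions. Of 24 partners and retinoblastoma pathway genes tested, 5 were higher in ARP1 and 5 lower, with a median log2 difference of 0.03, beside 27.1% of all genes. CDKN1C, an inhibitor of cyclin-dependent kinases, is among the 5 but was below 1 FPKM in all H929 libraries and entered the test only through ARP1, so its values are a description (4.98 ± 1.52 FPKM in ARP1, 0.409 ± 0.258 in H929). CDKN2B, an inhibitor of CDK4 and CDK6, averaged 31.5 ± 8.17 in ARP1 and 11.4 ± 1.40 in H929 (1.36). On the other side, CCNE2, cyclin E2, averaged 6.83 ± 2.16 in ARP1 and 17.6 ± 2.22 in H929 (-1.28), and TFDP1, the partner of E2F factors, 86.4 ± 23.6 and 201 ± 10.3 (-1.25; SD, n = 4 each, limma adjusted p at most 0.00446 for CDKN2B, CCNE2 and TFDP1). Of the catalytic partners, CDK4 was higher in ARP1 (156 ± 19.0 against 101 ± 7.99 FPKM; 0.62, adjusted p = 0.0134, lost without any 1 of the 4 control libraries) and CDK6 was 192 ± 36.5 in ARP1 and 188 ± 4.70 in H929 (adjusted p = 0.964). CDKN2C, the inhibitor p18, was listed at 0 in all 8 libraries.

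Around FGFR3, 1 of 19 genes of FGF signalling was higher in ARP1 and 5 were lower, beside 13.7% and 13.4% of all genes, with a median of -0.26. The dual-specificity phosphatase DUSP4 averaged 9.74 ± 0.834 FPKM in ARP1 and 2.07 ± 0.845 in H929 (1.85), while the phospholipase PLCG1 averaged 3.80 ± 0.965 and 9.35 ± 0.724 (-1.13) and the decoy receptor FGFRL1 12.4 ± 2.64 and 26.8 ± 3.72 (-1.06). CBL, which marks receptors for destruction, averaged 24.6 ± 1.81 in ARP1 and 45.3 ± 1.84 in H929 (-0.86; SD, n = 4 each, limma adjusted p at most 0.00338 for these 4). FGFR1 did not pass (adjusted p = 0.446). Around NSD2, 3 of 12 genes of the NSD family and of H3K36 or H3K27 methylation were higher in ARP1 and 1 was lower, beside the same shares of all genes, with a median of 0.16. EZH2, which places H3K27 methylation, averaged 62.1 ± 7.29 FPKM in ARP1 and 94.8 ± 11.6 in H929 (-0.60, adjusted p = 0.00541), and its paralogue EZH1 21.3 ± 5.21 and 13.6 ± 2.38 (0.60, adjusted p = 0.0202, lost without any 1 of the 4 control libraries). The NSD2 paralogues NSD1 and NSD3 did not pass (adjusted p = 0.123 and 0.0622).

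Around MAF, its paralogue MAFA was near the floor and peaked at 0.136 FPKM in ARP1 libraries and 0.116 FPKM in H929 libraries. Of 6 family members and partners tested, BACH1 alone passed, at 38.95 ± 2.91 FPKM in ARP1 and 58.6 ± 21.3 in H929 (-0.52, limma adjusted p = 0.0442). The value was -0.34 without either control of knockdown, the H929 one standing at 90.0 FPKM, and the call held in 2 of the 8 fits with 1 library left out. Of 8 known MAF targets tested, 2 were higher in ARP1 and 1 was lower, beside 13.7% and 13.4% of all genes, with a median of 0.07. One of the 2 is CCND2, described above. DEPTOR, an inhibitor of mTOR that is abundant in myelomas with MAF expression, stood at 12.1, 30.8, 63.9 and 14.96 FPKM in ARP1 against 2.12, 1.70, 3.27 and 1.05 FPKM in H929 (log2 difference 3.13, SE 0.29, adjusted p = 0.00125). The lowest ARP1 library lay above the highest H929 library, and DEPTOR was highest in the library labelled knockdown in each line. RND3, a small GTPase, was lower in ARP1 (3.55 ± 1.55 against 6.48 ± 1.86 FPKM, adjusted p = 0.037), a call that held in 2 of the 8 left-out fits, those without a control of knockdown. ITGB7, the integrin beta 7 chain that MAF is known to raise in myeloma, was high in both lines at 551 to 617 FPKM in ARP1, against 456 to 631 in H929, and did not pass (0.10, SE 0.12, adjusted p = 0.567).

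Of 15 genes of the MYC network tested, 2 were higher in ARP1 and 0 were lower, beside 13.7% and 13.4% of all genes. One was MXI1, an antagonist that also binds MAX (log2 difference 0.80, limma adjusted p = 0.0193), whose call was lost without any 1 of the 4 control libraries. The other was MYCN, the neuronal paralogue, at 0.741, 2.98, 8.88 and 2.55 FPKM in ARP1, against 0.0708, 0.155, 0.218 and 0.0346 FPKM in H929. MYCN entered the test only through ARP1, so its values are a description. MAX itself averaged 54.2 ± 17.5 FPKM in ARP1 and 52.2 ± 10.1 in H929 (adjusted p = 0.936). Of 19 known MYC targets, 4 were higher in ARP1 (TERT, FBL, CDK4 and LDHA, with log2 differences of 0.52 to 0.89) and 0 were lower, beside the same shares of all genes, and the median was -0.02. With 1 library left out, FBL was called in 8 of 8 fits, CDK4 in 4, LDHA in 4 (not without an overexpression library or a control of knockdown) and TERT in 2 (those without a library labelled knockdown). In the ARP1 library labelled knockdown 16 of the 19 were below the control, with a median log2 ratio of -0.59, beside 52.1% of all genes tested and a median of -0.03, while MYC itself was above it at 0.66. In H929 6 of 19 were below it, beside 48.4% of all genes, with a median of 0.09 and MYC at 0.33. Under the knockdown label and in its control, NCL, nucleolin, was 174 and 242 FPKM in ARP1 (297 and 264 in H929), and ODC1, which makes polyamines, was 242 and 406 FPKM in ARP1 (377 and 332 in H929). By limma 0 of the 19 passed in the knockdown contrast.

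Of 7 other immunoglobulin translocation partners tested, 2 were higher in ARP1 and 0 lower, beside 13.7% and 13.4% of all genes. The survival gene BCL2 averaged 65.0 ± 30.02 FPKM in ARP1 and 23.3 ± 7.83 in H929 (1.41, limma adjusted p = 0.00663), and the B cell factor PAX5 stood at 1.06 to 3.75 FPKM in ARP1 and was listed at 0 in all 4 H929 libraries, so it entered the test only through ARP1 and its values are a description. IRF4, a factor that myeloma cells need, was 330.1 to 713 FPKM in ARP1, against 202 to 455 in H929, and did not pass.

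Neighbours on the same chromosome arm were listed for each gene. Counts of genes higher and lower in ARP1 were 1 and 0 of 11 around NSD2 and FGFR3 (POLN, which entered the test only through ARP1), 0 and 0 of 5 around CCND1, 1 and 0 of 7 around CCND2 (PARP11), 1 and 0 of 11 around CCND3 (TRERF1), and 0 and 1 of 4 around MAF (CMC2). POLN and CMC2 were each called in 2 of the 8 fits with 1 library left out, those without a library labelled knockdown. Around MYC they were 5 and 0 of 6, with a median log2 difference of 0.96. These were TRIB1 (133 ± 45.9 FPKM in ARP1, 31.6 ± 4.42 in H929; 1.97), NSMCE2 (47.3 ± 1.73 and 21.9 ± 2.78; 1.08), FAM49B (78.2 ± 15.3 and 37.2 ± 3.86; 1.04), ASAP1 (10.6 ± 3.01 and 5.19 ± 1.02; 0.88) and PVT1, a noncoding gene next to MYC (59.96 ± 3.60 and 36.3 ± 2.17; 0.71; SD, n = 4 each, limma adjusted p at most 0.00918 for the 5). These lists were drawn up with earlier results of the same libraries known, so the counts are a description beside the 13.7% of all genes that were higher in ARP1. The copy number of the region was not measured here.

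By likeness across libraries, after the mean of each line was subtracted, the protein-coding genes most like each member were taken from 7346 with a mean of at least 10 FPKM (7347 for FGFR3 and CCND1). CCND2 was nearest to LRP6 (Pearson r = 0.985), CSNK2A1 (0.973) and NDRG2 (0.969), and CCND3 to LYPLA1 (0.984), CCNF (0.983) and RPS26 (0.982). MYC was nearest to CUX1 (0.976), TXNDC11 (0.966) and SUMF2 (0.957), MAF to JSRP1 (0.986), FECH (0.985) and TMEM256 (0.983), and NSD2 to ACBD6 (0.961), HOMER3 (0.937) and ABHD18 (0.924). CCND1 was nearest to PIK3R4 (0.993), STK26 and PSMA1 (0.981 each), and FGFR3 to SNX11 (0.99), AFF4 (0.966) and ZMYM3 (0.947). These are the highest of all these values over 8 libraries that share their scaling, so they describe these libraries and carry no test.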

How the data were processed

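The authors deposited 1 table of FPKM per transcript for 8 libraries; the sources used here name Bowtie 0.12.2, HISAT2 2.0, StringTie 1.3.0 and the mouse build mm8, per the submitters' processing notes. The identifiers are human, and the human build behind the values is not stated. The labels' protocol text also names adipose tissue, which is not the cell type given. The 7 genes, the related lists and the tests were chosen with earlier results of these data known.

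Of 88209 transcripts, 87707 were matched to GENCODE 29 (GRCh38) and summed to 24351 genes. The 14905 genes that reached 1 FPKM in 2 or more libraries were fitted as log2(FPKM + 1), a scale that understates changes of low genes, in limma 3.58.1 (R 4.3.3). Line and genotype were terms (3 residual degrees of freedom), moderation of the variances followed a trend, and two-sided p-values received Benjamini-Hochberg adjustment with a threshold of 0.05. The genotype labels pair the lines. Within a line, log2 ratios carry no test. Read depth is unknown, so no counting error is given.

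Named were all 7 genes, CHEK1, up to 6 transcripts per gene, up to 4 called genes per list with others their roles needed, and the 3 most alike genes. The fifth neighbour of MYC was named after its values were seen. Alternatives were no filter, a pseudocount of 0.1, a floor of 5 FPKM, scaling by total, median ratio or quantiles, no trend, robust variances, sums without the 1035 transcripts under 300 nt, weighting by length, no block, each arm alone, the other control and each library left out. Promoters are RefSeq's. Leaving out libraries for genes of the related lists, and the shares of all genes beside the arms and the knockdown pairs, were added after seeing the data.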

Additional observations from a re-analysis of the deposited data

Results flagged for a closer look

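FGFR3 moved in opposite directions with CHEK1 overexpression in the lines: the log2 ratio of overexpression to its control was 0.153 in ARP1 and -0.325 in H929. All 4 values were at most 1.18 FPKM, and the difference between the lines was not tested. MAF did so in the libraries labelled knockdown, at 0.156 in ARP1 and -0.00942 in H929, the H929 value being close to 0; this difference was not tested either. No library of the 7 genes stood apart from the other 3 of its line by Dixon's criterion.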

How the results depend on the processing

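CCND2 and MYC were higher in ARP1 and called in all 21 alternatives, with log2 differences of 1.80 to 2.03 for CCND2 and 1.095 to 1.40 for MYC when any 1 library was left out. The line difference is taken within genotypes, so leaving out a library also leaves its genotype partner without a comparison. Left-out fits of the same genotype therefore share an estimate, and counts out of 8 fits are not separate checks. Left-out ranges were -0.26 to -0.20 for NSD2, -0.64 to -0.40 for FGFR3, -0.0267 to 0.21 for CCND1, -0.97 to -0.66 for CCND3 and 0.55 to 0.72 for MAF. NSD2 passed with scaling to a common total (-0.31). FGFR3 passed with quantile normalization (-0.68) and with weighting by transcript length (-0.68), but it entered the test only through H929, so its values are a description. MAF lost its call with no genotype block (0.61, adjusted p = 0.0528) and in the overexpression arm (0.51) or knockdown arm (0.71) alone, and CCND3 in the knockdown arm alone (-1.06). No other member's call changed without the block. Genes called between the lines numbered 4035, but 2463 in the overexpression arm, 240 in the knockdown arm and 1830 to 4039 with 1 library left out, fewest without a control of overexpression. Transcripts called numbered 2390, but 16 with no filter, 943 with no trend and 8 to 758 with 1 library left out. The cause was not tested, beyond the fewer libraries in an arm or a left-out fit.

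For overexpression 1 gene was called: 2 with no filter, 0 without short transcripts, 0 against the other control and 1 to 3 with 1 library left out. For knockdown 2 were: 1 with a pseudocount of 0.1 or scaling to a common total, 5 with no trend, 0 with FPKM of at least 5, without short transcripts, weighted by length or with no block for the line, and 0 to 837 with 1 library left out, 837 without the H929 library labelled knockdown. Directions turned for overexpression in FGFR3 (0.0122 with quantile normalization; -0.37 to 0.20 left out), CCND3 (-0.12 against the other control) and MYC (0.54 against the other control; -0.59 to 0.0695 left out). They turned for knockdown in FGFR3 (0.00958) and MYC (-0.31) against the other control, MAF (-0.0212 weighted by length; -0.0494 to 0.20 left out) and CHEK1 (-0.37 to 0.21 left out), and CHEK1 between the lines stood at 0.0149 in the overexpression arm. None of these values passed the test.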
